A study of Homo sapiens with 6 samples.

Results

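The genes described here are those of the poly(A) tail and of the machinery that removes the tail and the cap of messenger RNA. Members were taken by symbol: names that begin CNOT, TENT, PAPOL, PABPC, CPSF, CSTF, DCP, EDC, LSM or TUT followed by a number or subunit letter, and PABPN1, PAN2, PAN3, PARN, XRN1, XRN2, TOB1, TOB2, BTG1 and BTG2. Of the 14884 genes with a probe set that carried a single symbol, 20 were members, each with 1 probe set. No member of the BTG/TOB family, of the poly(A)-binding proteins or of the TUT uridylyltransferases was among them, and those genes, like FAM46A itself, were not analysed here. The sole CNOT genes among them were CNOT9 and CNOT11, the sole LSM gene LSM12 and the sole CPSF or CSTF gene CPSF4L. The nucleases and scaffold of CCR4-NOT, the LSM rings and the other CPSF and CSTF subunits were thus not assessed. The long non-coding RNA CSTF3-DT, a divergent transcript that only shares the symbol's start, was left out of the members. Its log2 change for the mean of both hairpins was 0.08 ± 0.090.

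RNA came from Caco-2 cells, a human colon cancer line whose cells become enterocyte-like when grown to confluence, 17 days after infection of subconfluent cells with a lentivirus that carried a short hairpin RNA (shRNA). The groups were FAM46A-shRNA#2, FAM46A-shRNA#4 and scramble shRNA, with 2 single-channel Affymetrix arrays each. Both hairpins were aimed at FAM46A, also called TENT5A, which belongs to the non-canonical poly(A) polymerases, and the scramble cells had been infected too. The comparison addresses which transcripts differ after FAM46A depletion; the depletion itself was not analysed here, so the groups follow the labels.

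The deposited values were relative to the median of each probe set over the 6 arrays and were taken as log2, although no source used here states the base. They carry no level, so only differences between groups are given, and the presence of markers in these cells could not be read. Errors after ± are standard errors of a limma fit with n = 2 arrays in each group, and a gene was called at a Benjamini-Hochberg adjusted p under 0.05 over all genes. The number of arrays limits the precision. The replicates of a group differed by a median of 0.08 on the log2 scale over the 20 members in each of the 3 groups, and by at most 0.31. For the mean of both hairpins 4 of 8 measured markers of intestinal epithelium fell and 0 rose, beside 25.4% of all genes called. These were KRT20 (-1.19), VIL1 (-0.61), CDX2 (-0.26) and EPCAM (-0.15). The 4 not called were KRT18 (0.30), KRT8 (0.13), CDX1 (-0.05) and KRT19 (-0.007). With shRNA#4 alone 1 of the 8 rose and 3 fell. Of 4 mesenchymal markers VIM rose (0.28) and THY1 fell (-0.20). Of 4 markers of immune or endothelial cells CD68 (-2.01) and LYZ (-1.16) fell, while PECAM1 stood at -0.04 and VWF at 0.004. All samples were of the Caco-2 line, so the values of the mesenchymal, immune and endothelial markers are those of RNA from Caco-2 cells. The part of the markers in the results below was not tested. In bulk RNA fewer cells in a given state and less RNA per cell cannot be told apart.

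Most messenger RNAs receive a poly(A) tail from a canonical poly(A) polymerase when their 3′ end is cleaved in the nucleus. In the cytoplasm the tail is shortened by the PAN2-PAN3 and CCR4-NOT complexes, after which the cap is removed by DCP2 with its cofactors and the body is degraded by the exonuclease XRN1. Non-canonical polymerases of the TENT family add nucleotides to finished RNA ends, which can prolong or shorten the life of the RNA.

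Averaged over both hairpins, 7 of the 20 members rose and 3 fell relative to scramble, or 35% and 15% of the set, beside 14.8% and 10.6% of all genes (limma, adjusted p under 0.05). CNOT9, XRN2, TENT4A, PAPOLG, LSM12, TENT4B and DCP1A were higher, by 1.12-fold to 1.52-fold, and DCP2, PAN2 and XRN1 were lower, by 1.22-fold to 1.41-fold. The 10 called members were 50% of the set, beside 25.4% called over all genes, and beside 29.6% over the protein-coding genes, to which all 20 members belong. The median change of the members was 0.09, beside 0.003 over all genes, and the median size of the change regardless of sign was 0.20, beside 0.09. In 11 members the hairpin arrays were separate from the scramble arrays, all 4 above in 7 and all 4 below in 4, and 36.2% of all genes were separate in this way. The call was kept without each of the 6 arrays in turn for CNOT9, XRN2, DCP2, LSM12 and TENT4A. Without scramble replicate 2, 6 of the 20 were called, beside 19.3% of all genes in that fit. When the hairpins were pooled into 1 group of 4 arrays 5 were called, beside 11.8% of all genes. In that pooled fit, where any difference between the hairpins counts as spread, DCP2 (limma adjusted p 0.100), LSM12 (0.0634), TENT4A (0.0826), PAN2 (0.134) and DCP1A (0.687) were not called. Arrays were left out 1 at a time throughout, and in those 6 fits 16.6% to 22.6% of all genes were called for the mean of both hairpins.

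**Figure D1:**
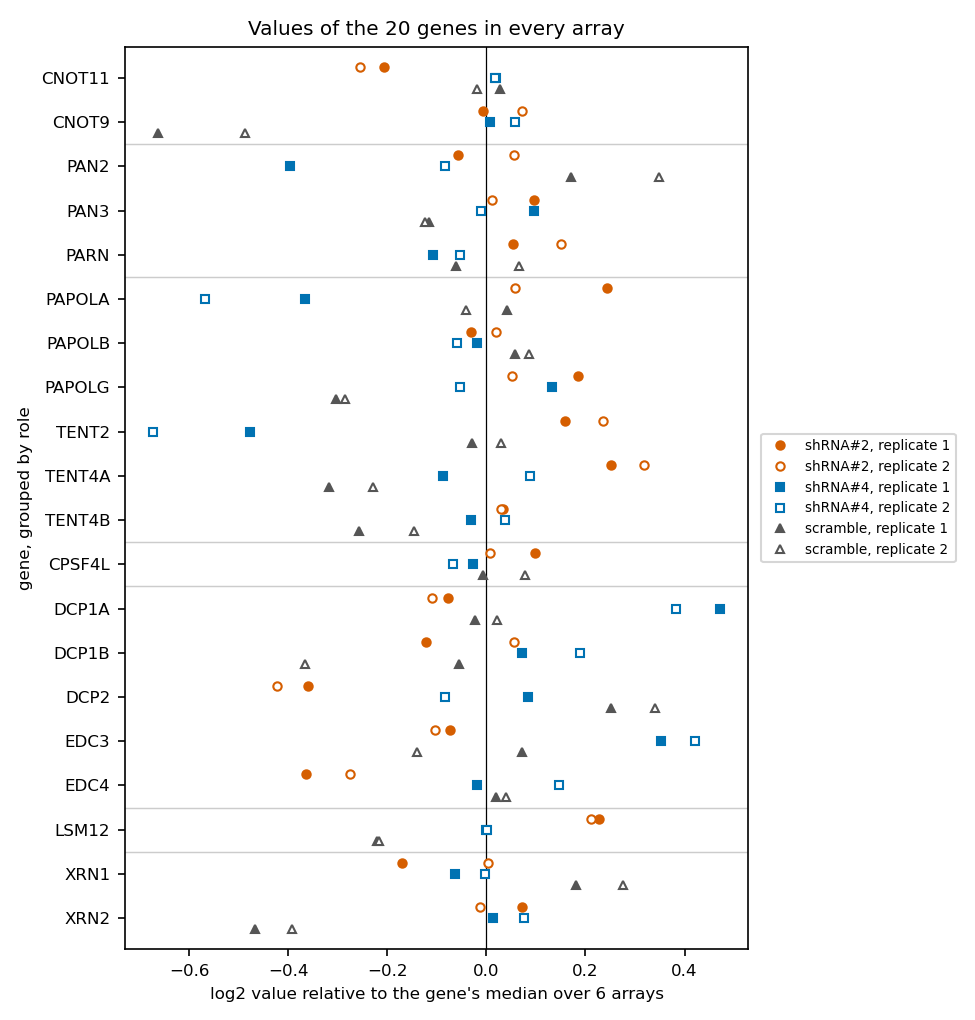
Log2 value of each of the 20 genes in every array, relative to the gene's median over the 6 arrays (horizontal axis), with filled symbols for replicate 1 and open symbols for replicate 2. Grey lines separate the roles. CNOT9 and XRN2 have all 4 hairpin arrays close together and far above both scramble arrays, while TENT2 and PAPOLA have both shRNA#4 arrays far below the other 4.

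With shRNA#2 6 members rose and 4 fell, 50% of the set, beside 21.6% of all genes called, 12.1% higher and 9.54% lower. With shRNA#4 8 rose and 5 fell, 65% of the set, beside 26.1% of all genes, 15.7% higher and 10.4% lower. Both comparisons use the same scramble arrays. Of these 23 calls, 9 were kept without each array in turn, and they belonged to CNOT9 and XRN2 with both hairpins, to TENT4A, LSM12 and DCP2 with shRNA#2, and to TENT2 and DCP1A with shRNA#4. The count for shRNA#2 was 5 without shRNA#2 replicate 1, beside 11.8% of all genes in that fit, and 5 without scramble replicate 1, beside 13.7%. The count for shRNA#4 was 8 without shRNA#4 replicate 1, beside 18% of all genes, and 6 without shRNA#4 replicate 2, beside 18.8%. It was 7 without scramble replicate 1, beside 18.2%, and 7 without scramble replicate 2, beside 20.6%. For the members outside those 9 calls, values with a single hairpin are given below without a call.

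The promoter windows of 4 members are shown because these genes carried the largest changes: CNOT9 and XRN2 among the rises, DCP2 among the falls, and TENT2 for the difference between the hairpins, chosen after its values were seen. Each is 300 bases of GRCh38.p14, from 250 before to 50 after a RefSeq start, read 5′ to 3′ along the gene, with matches of the searched motifs in capitals. The windows lie at chr2:218568589-218568888 (CNOT9), chr20:21303081-21303380 (XRN2), chr5:112976548-112976847 (DCP2) and chr5:79612191-79612490 (TENT2), all on the plus strand.
CNOT9: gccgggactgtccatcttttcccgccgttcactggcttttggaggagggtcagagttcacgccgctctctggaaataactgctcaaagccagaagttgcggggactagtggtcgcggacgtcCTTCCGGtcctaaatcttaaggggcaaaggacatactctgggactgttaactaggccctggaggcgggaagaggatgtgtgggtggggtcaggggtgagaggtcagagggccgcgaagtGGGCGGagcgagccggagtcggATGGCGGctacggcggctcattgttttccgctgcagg
XRN2: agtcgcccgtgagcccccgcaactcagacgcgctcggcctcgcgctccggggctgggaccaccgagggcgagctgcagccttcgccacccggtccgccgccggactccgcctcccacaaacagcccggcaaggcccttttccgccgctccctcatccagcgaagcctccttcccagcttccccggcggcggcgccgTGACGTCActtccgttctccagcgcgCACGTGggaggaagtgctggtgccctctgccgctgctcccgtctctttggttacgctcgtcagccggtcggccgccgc
DCP2: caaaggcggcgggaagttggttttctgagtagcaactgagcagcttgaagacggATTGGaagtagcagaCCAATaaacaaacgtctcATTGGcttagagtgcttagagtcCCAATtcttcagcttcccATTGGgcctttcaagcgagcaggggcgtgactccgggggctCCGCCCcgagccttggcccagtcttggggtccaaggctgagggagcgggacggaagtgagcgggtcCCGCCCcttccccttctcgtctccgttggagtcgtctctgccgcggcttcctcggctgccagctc
TENT2: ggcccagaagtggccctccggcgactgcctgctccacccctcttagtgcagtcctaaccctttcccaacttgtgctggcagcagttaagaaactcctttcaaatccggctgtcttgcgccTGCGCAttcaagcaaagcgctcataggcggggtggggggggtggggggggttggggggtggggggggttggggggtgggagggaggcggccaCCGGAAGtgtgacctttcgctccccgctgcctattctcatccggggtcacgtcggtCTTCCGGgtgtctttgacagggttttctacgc
Both strands were searched for 7 short motifs. CCGGAAG is bound by ETS factors and ATGGCGG by the factor YY1. TGCGCA is the core of the NRF1 site and CCAAT that of the factor NF-Y. GGGCGG is bound by factors of the SP and KLF families, while CACGTG is the E-box and TGACGT the core of the site of CREB and ATF factors. The CNOT9 window held the ETS, SP/KLF and YY1 motifs once each. The XRN2 window held the CREB/ATF motif on both strands in an overlapping run, and the E-box. The DCP2 window held 5 matches of the NF-Y motif, a number that 0.359% of all 35116 windows reach, and 2 of the SP/KLF motif. The TENT2 window held the ETS motif on both strands, and the NRF1 motif.

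RefSeq windows were found for 18 of the 20 members (all but TENT4A and CPSF4L), 24 in all, since several genes have more than 1 start and some of their windows overlap. Matches of the SP/KLF motif were in 66.7% of the member windows, beside 45% of all windows, and matches of the ETS motif in 29.2%, beside 10.3%. The CREB/ATF motif was in 16.7% of the member windows, beside 7.98% of all windows, and the NRF1 motif in 16.7%, beside 8.24%. Counted by gene, the SP/KLF motif was in 14 of the 18 members, the CREB/ATF motif in 3 and the NRF1 motif in 3. Overlapping windows of PAPOLA held the same SP/KLF and NRF1 sites, and those of XRN2 the same CREB/ATF sites. The YY1 motif was in 12.5%, beside 5.55%, and the E-box in 8.33%, beside 7.26%. The E-box share came from 1 gene, XRN2, whose 2 overlapping windows held the same site. The NF-Y motif was the sole one with a lower share among the member windows, 20.8% beside 34.6%. The member windows were richer in G and C, with a median of 64%, beside 58.7% for all windows.

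Among the canonical poly(A) polymerases PAPOLG rose, PAPOLA differed between the hairpins and PAPOLB was not called. PAPOLG, a nuclear poly(A) polymerase, stood at 0.18 and 0.05 in the shRNA#2 arrays and at 0.13 and -0.05 in the shRNA#4 arrays, against -0.30 and -0.28 in the scramble arrays. All 4 hairpin arrays were above both scramble arrays, and the mean rise was 0.37 ± 0.069 (limma adjusted p 0.0104). This call ended without scramble replicate 1 (adjusted p 0.0647) and without scramble replicate 2 (0.0508). PAPOLA, the main nuclear poly(A) polymerase, stood at 0.24 and 0.06 with shRNA#2 and at -0.37 and -0.57 with shRNA#4, against 0.04 and -0.04 in scramble. The shRNA#2 arrays were the highest and the shRNA#4 arrays the lowest of the 6, and the mean of both hairpins was not called (-0.16 ± 0.081, adjusted p 0.232). PAPOLB, known as a testis-specific relative of PAPOLA, was not called in any comparison, with a mean change of -0.09 ± 0.043 and a 95% confidence interval from -0.20 to 0.01. How far probe sets of such close relatives cross-hybridise was not analysed here.

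Of the non-canonical polymerases, the paralogs TENT4A and TENT4B rose, and TENT2 was split by hairpin. TENT4A and TENT4B act on nuclear RNA and can add mixed tails that slow deadenylation of messenger RNA. TENT4A stood at 0.25 and 0.32 with shRNA#2 and at -0.09 and 0.09 with shRNA#4, against -0.32 and -0.23 in scramble. The hairpin groups were both above scramble and did not overlap with each other, and the mean rise was 0.41 ± 0.064 (1.33-fold, limma adjusted p 0.00564). The change was 0.56 ± 0.074 with shRNA#2 and 0.27 ± 0.074 with shRNA#4, and the difference between them, 0.28 ± 0.074, had an adjusted p of 0.0536, and of 0.0222 with the replicate number as a block (limma). TENT4B stood at 0.03 in both shRNA#2 arrays and at -0.03 and 0.04 with shRNA#4, against -0.26 and -0.15 in scramble. Its hairpin arrays were all above scramble and its mean rise was 0.22 ± 0.050 (limma adjusted p 0.0233). That call ended without either shRNA#2 array, without shRNA#4 replicate 2 and without scramble replicate 1, with adjusted p-values from 0.0599 to 0.140.

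TENT2, the cytoplasmic polymerase also known as GLD2, stood at 0.16 and 0.24 with shRNA#2 and at -0.48 and -0.67 with shRNA#4, against -0.03 and 0.03 in scramble. The shRNA#2 arrays were above both scramble arrays and the shRNA#4 arrays below them. TENT2 fell by 0.575 ± 0.077 with shRNA#4 (limma adjusted p 0.00333), a call kept without each array, and its change with shRNA#2 was 0.20 ± 0.077 (adjusted p 0.134). The mean of both hairpins, -0.19 ± 0.066 with an adjusted p of 0.0931 from limma, lies between these values. Without shRNA#4 replicate 1 this mean was called (-0.24, adjusted p 0.0349).

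CNOT9 had the largest change of the members for the mean of both hairpins. Its protein is the CCR4-NOT subunit that docks the TNRC6 proteins of microRNA silencing. CNOT9 stood at -0.01 and 0.07 with shRNA#2 and at 0.01 and 0.06 with shRNA#4, against -0.66 and -0.49 in scramble. The 4 hairpin arrays lay within 0.08 of each other, and the gap to the scramble arrays exceeded the gap between the scramble replicates. The mean rise was 0.61 ± 0.063 (1.52-fold, limma adjusted p 0.00144), larger in size than that of 94.9% of all genes. It was 0.61 with either hairpin, and the difference between them was 0.001 with a 95% confidence interval from -0.18 to 0.18. CNOT11, which together with CNOT10 binds the start of the scaffold CNOT1, stood at -0.21 and -0.26 with shRNA#2 and at 0.02 in both shRNA#4 arrays, against 0.03 and -0.02 in scramble. It was low only in the shRNA#2 arrays, and the mean of both hairpins was not called (-0.11 ± 0.042, adjusted p 0.116).

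The other deadenylase genes are PAN2, the catalytic subunit of the PAN2-PAN3 complex, PAN3, its regulatory subunit, and PARN, a nuclear deadenylase that also trims small RNAs. PAN2 stood at -0.06 and 0.06 with shRNA#2 and at -0.40 and -0.08 with shRNA#4, against 0.17 and 0.35 in scramble. All hairpin arrays were below both scramble arrays, and the shRNA#4 replicates lay 0.31 apart, the widest gap of that group among the members. The mean fall was 0.38 ± 0.10 (limma adjusted p 0.0387). It was called without shRNA#4 replicate 2, and it was not called without any 1 of the other 5 arrays, where adjusted p ran up to 0.200. PAN3 was not called (0.17 ± 0.052, adjusted p 0.0622) but its 4 hairpin arrays, from -0.01 to 0.10, were all above the scramble arrays, at -0.12 in both, and with the replicate number as a block its adjusted p was 0.0452 (limma). For PARN the mean change was 0.01 ± 0.057, with a 95% confidence interval from -0.13 to 0.15.

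**Figure D2:**
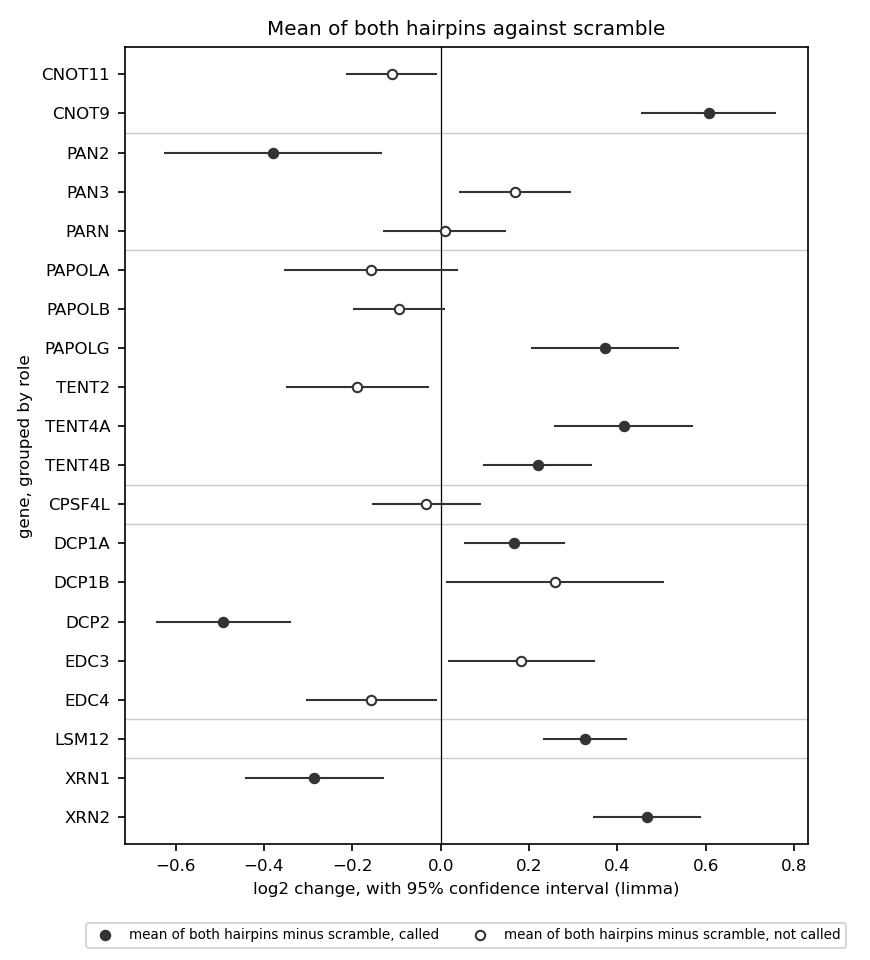
Log2 change of the mean of both hairpins against scramble (horizontal axis) for the 20 genes, with 95% confidence intervals of the limma fit. Filled points are the 10 genes called at an adjusted p under 0.05, 7 to the right and 3 to the left of 0.

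DCP2, the enzyme that removes the cap, fell, while DCP1A, EDC3 and EDC4 differed between the hairpins and DCP1B was not called. DCP2 stood at -0.36 and -0.42 with shRNA#2 and at 0.08 and -0.08 with shRNA#4, against 0.25 and 0.34 in scramble. The shRNA#2 arrays were the lowest, the shRNA#4 arrays lay between, and no groups overlapped. The mean fall was 0.49 ± 0.063 (limma adjusted p 0.00282), made up of a change of -0.69 ± 0.073 with shRNA#2 and of -0.30 ± 0.073 with shRNA#4. DCP1A, which activates DCP2, stood at -0.08 and -0.11 with shRNA#2 and at 0.47 and 0.38 with shRNA#4, against -0.02 and 0.02 in scramble. It was high only in the shRNA#4 arrays, where it rose by 0.43 ± 0.054 (limma adjusted p 0.00275). Its call for the mean of both hairpins (0.17 ± 0.047, adjusted p 0.0459) averages these unlike values. With the replicate number as a block that mean had an adjusted p of 0.0550 (limma), and it was kept only without shRNA#4 replicate 2 and ended without any 1 of the other 5 arrays (adjusted p from 0.0923 to 0.214).

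DCP1B, the paralog of DCP1A, was not called in any comparison. Its scramble arrays, at -0.06 and -0.37, lay 0.31 apart, the widest gap between scramble replicates among the members, and its mean change was 0.26 ± 0.10 (adjusted p 0.123). Without scramble replicate 1 it was called (0.415, adjusted p 0.0396). EDC3, an enhancer of decapping and a component of P-bodies, stood at -0.07 and -0.10 with shRNA#2 and at 0.35 and 0.42 with shRNA#4, against 0.07 and -0.14 in scramble. Like DCP1A it was high in the shRNA#4 arrays alone, and the mean of both hairpins was 0.18 ± 0.068 (adjusted p 0.110). That mean was called without scramble replicate 1 (0.29, adjusted p 0.0333). EDC4, a scaffold that joins DCP1 and DCP2, stood at -0.36 and -0.28 with shRNA#2 and at -0.02 and 0.15 with shRNA#4, against 0.02 and 0.04 in scramble. It was low in the shRNA#2 arrays alone, with a mean of both hairpins of -0.16 ± 0.061 (adjusted p 0.122).

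The 5′-3′ exonucleases XRN1 and XRN2 went opposite ways. XRN2 acts in the nucleus, where it degrades the RNA left on the polymerase after cleavage at the poly(A) site, and XRN1 degrades decapped messenger RNA in the cytoplasm. XRN2 stood at 0.07 and -0.01 with shRNA#2 and at 0.01 and 0.08 with shRNA#4, against -0.47 and -0.39 in scramble. Both hairpin groups overlapped with each other and lay far above scramble, with a mean rise of 0.47 ± 0.050 (1.38-fold, limma adjusted p 0.00163). It was 0.46 ± 0.058 with shRNA#2 and 0.47 ± 0.058 with shRNA#4, and the difference had a 95% confidence interval from -0.16 to 0.13. XRN1 stood at -0.17 and 0.003 with shRNA#2 and at -0.06 and -0.003 with shRNA#4, against 0.18 and 0.28 in scramble. All its hairpin arrays were below scramble, with a mean fall of 0.29 ± 0.064 (limma adjusted p 0.0216). That call ended without scramble replicate 1, scramble replicate 2 or shRNA#4 replicate 1, with adjusted p-values of 0.0560, 0.122 and 0.0603.

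LSM12, an Lsm-domain protein outside the heptameric LSM rings, stood at 0.23 and 0.21 with shRNA#2 and at -0.001 and 0.001 with shRNA#4, against -0.22 in both scramble arrays. The 3 groups were separate and each pair of replicates was within 0.02. The mean rise was 0.33 ± 0.039 (1.26-fold, limma adjusted p 0.0022), with 0.44 ± 0.045 for shRNA#2 and 0.22 ± 0.045 for shRNA#4. CPSF4L, a relative of the cleavage factor subunit CPSF4, was the sole cleavage factor among the members and was not called in any comparison. Its mean change was -0.03 ± 0.051, with a 95% confidence interval from -0.16 to 0.09.

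The hairpins were also compared with each other, a difference in which the scramble values cancel. Of the 20 members 3 were higher and 5 lower with shRNA#2 than with shRNA#4, 40% of the set, beside 15.3% of all genes (limma, adjusted p under 0.05), 6.64% higher and 8.63% lower. TENT2 (0.77 ± 0.077, 1.71-fold, adjusted p 0.00325), PAPOLA (0.62 ± 0.093, 1.54-fold, adjusted p 0.0103) and LSM12 (0.22 ± 0.045, adjusted p 0.0256) were higher with shRNA#2. Of the 5 decapping genes 4 were lower with shRNA#2, and the fifth, DCP1B, was at -0.16 ± 0.12 with a 95% confidence interval from -0.45 to 0.12. DCP1A differed by -0.52 ± 0.054 (adjusted p 0.00361), EDC3 by -0.47 ± 0.079 (0.0134), DCP2 by -0.39 ± 0.073 (0.0185) and EDC4 by -0.38 ± 0.070 (0.0179). CNOT11, outside this group, differed by -0.25 ± 0.049 (limma adjusted p 0.0215). In 13 members both shRNA#2 arrays lay on one side of both shRNA#4 arrays, and 54.5% of all genes did so.

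The differences of TENT2 and DCP1A were called without each array in turn. The other 6 ended without at least 1 hairpin array. Without shRNA#2 replicate 1, 2 of the 20 members were called, beside 5.11% of all genes in that fit, and without shRNA#2 replicate 2, 3 were, beside 6.87%. Without shRNA#4 replicate 1, 5 were called, beside 8.73%, and without shRNA#4 replicate 2, 4 were, beside 7.1%. PAPOLA ended without shRNA#2 replicate 1 alone (0.53, limma adjusted p 0.0595).

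**Figure D3:**
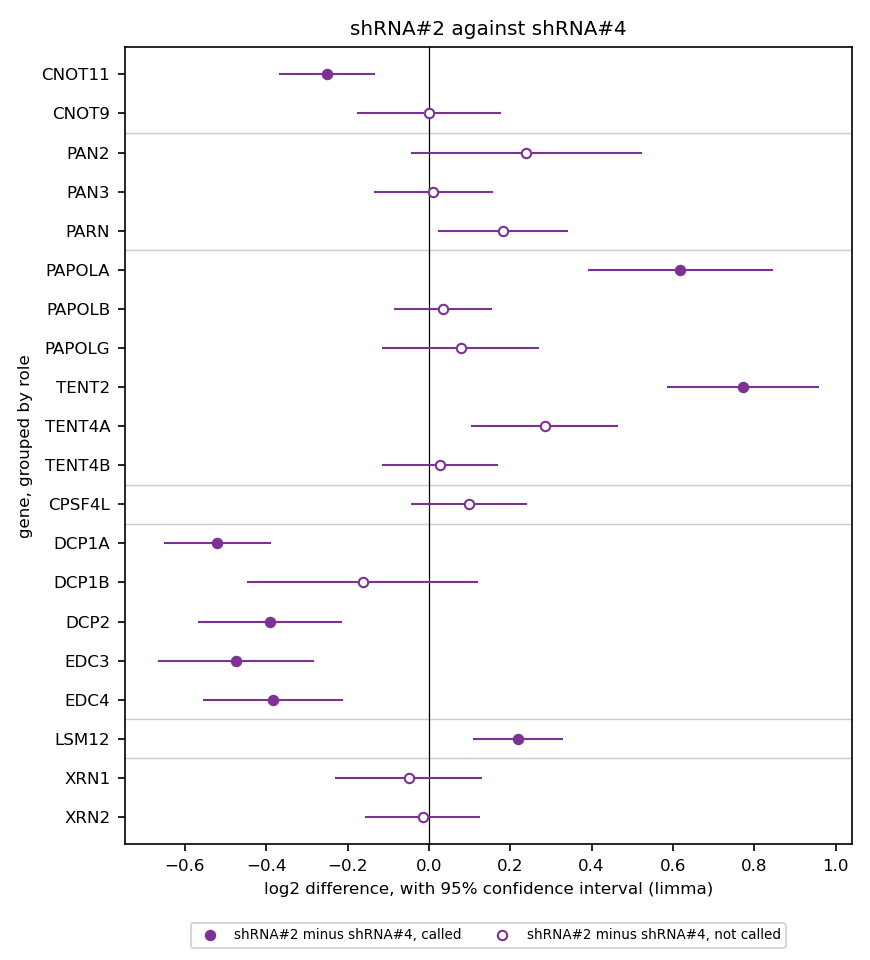
Log2 difference between shRNA#2 and shRNA#4 (horizontal axis, shRNA#2 minus shRNA#4) for the 20 genes, with 95% confidence intervals of the limma fit and filled points for the 8 called genes. The 5 decapping genes all lie left of 0, with TENT2 and PAPOLA farthest to the right.

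Other genes of messenger RNA ends and decay were taken as 6 lists with 117 genes, of which 79 were measured. Over these 27 rose and 4 fell for the mean of both hairpins, 39.2% of those measured, beside the same 25.4% of all genes (limma), and their median change was 0.11. The count of 31 was 16 without scramble replicate 1, or 20.3% beside 16.6% of all genes in that fit, and 19 without scramble replicate 2, or 24.1% beside 19.3%. It was 16 with the 4 hairpin arrays as 1 group, or 20.3% beside 11.8%. Of 20 genes of the RNA exosome, which degrades RNA from the 3′ end, with its cofactors and the SKI complex, 11 rose and 1 fell, with a median of 0.24. That is 60% of those measured, beside 25.4% of all genes and 29.6% of protein-coding genes. EXOSC8, a subunit of the exosome core, rose by 0.69 ± 0.11, with values of 0.15 and -0.03 with shRNA#2 and 0.39 and 0.03 with shRNA#4, against -0.50 and -0.62 in scramble. MTREX, the helicase that feeds RNA to the nuclear exosome together with TENT4B, rose by 0.48 ± 0.043, and its 4 hairpin arrays, from -0.01 to 0.15, were all above the scramble arrays at -0.44 and -0.41. The calls of EXOSC8 and MTREX were kept without each array, and the count of 12 in this list was 7 without scramble replicate 1, or 35% beside 16.6% of all genes, and 6 with the 4 hairpin arrays as 1 group, or 30% beside 11.8%.

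Of 13 other cleavage and polyadenylation factors 4 rose and 0 fell, 30.8% of those measured. That is near the shares of 25.4% of all genes and 29.6% of protein-coding genes. Fewer rose without either scramble array, and the share called was then below that of all genes in the same fit. NUDT21, a subunit of cleavage factor I that guides the choice of poly(A) site, rose by 0.48 ± 0.047, and FIP1L1, a partner of the poly(A) polymerase in the cleavage complex, rose by 0.34 ± 0.045, both without overlap between hairpin and scramble arrays. Of 23 decay activators and translational repressors 6 rose and 1 fell, 30.4%, again near those shares. With the hairpins pooled 4 were called, 17.4% beside 11.8% of all genes. The count of 7 was also lower without either shRNA#2 array, without shRNA#4 replicate 1 and without either scramble array. PATL1, a scaffold between the LSM ring and the decapping complex, rose by 0.39 ± 0.068, a call that ended without scramble replicate 1 (limma adjusted p 0.0627), and MEX3C, an RNA-binding ubiquitin ligase, rose by 0.34 ± 0.048. Of 8 genes listed as other deadenylases and cap hydrolases, a list that takes in relatives of the CCR4 nucleases, 3 rose and 1 fell. That is 50%, beside 25.4% of all genes. With the hairpins pooled 1 was called, 12.5% beside 11.8%. Fewer were called without shRNA#2 replicate 2, shRNA#4 replicate 1 or either scramble array. NOCT, a relative of the CCR4 nucleases, rose by 0.49 ± 0.088, with 0.09 and -0.09 with shRNA#2 and 0.73 and 0.50 with shRNA#4, against -0.12 and -0.24 in scramble, and shRNA#2 differed from shRNA#4 by -0.61 ± 0.10 (limma adjusted p 0.0136). The NOCT call ended without scramble replicate 2 (limma adjusted p 0.0635) and with the hairpins pooled (0.266). ANGEL1, of the same nuclease superfamily, rose by 0.34 ± 0.044.

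Of 9 genes of nonsense-mediated decay 1 rose, the exon junction gene MAGOHB (0.40 ± 0.056), and 0 fell. That is a share of 11.1%, beside 25.4% of all genes. The count in this list was higher without replicate 1 of shRNA#2 and without replicate 1 of shRNA#4. Of 6 genes listed as partners of the poly(A)-binding protein 2 rose and 1 fell, 50% beside the same 25.4% of all genes. All of these calls ended without either shRNA#2 array and without scramble replicate 1, and not all held without scramble replicate 2. With the hairpins pooled 0 of these 6 genes were called, in a fit that called 11.8% of all genes. The rises were EIF4E (0.29 ± 0.082) and PAIP1 (0.29 ± 0.067). EIF4E is in the list as the cap-binding translation factor, and PAIP1 binds the poly(A)-binding protein and promotes translation. EIF4E was called only without scramble replicate 2 among the fits that left out an array, with adjusted p-values up to 0.227 in the rest. PAIP1 was called without either shRNA#4 array and not without any 1 of the other 4 arrays (limma adjusted p up to 0.149).

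**Figure D4:**
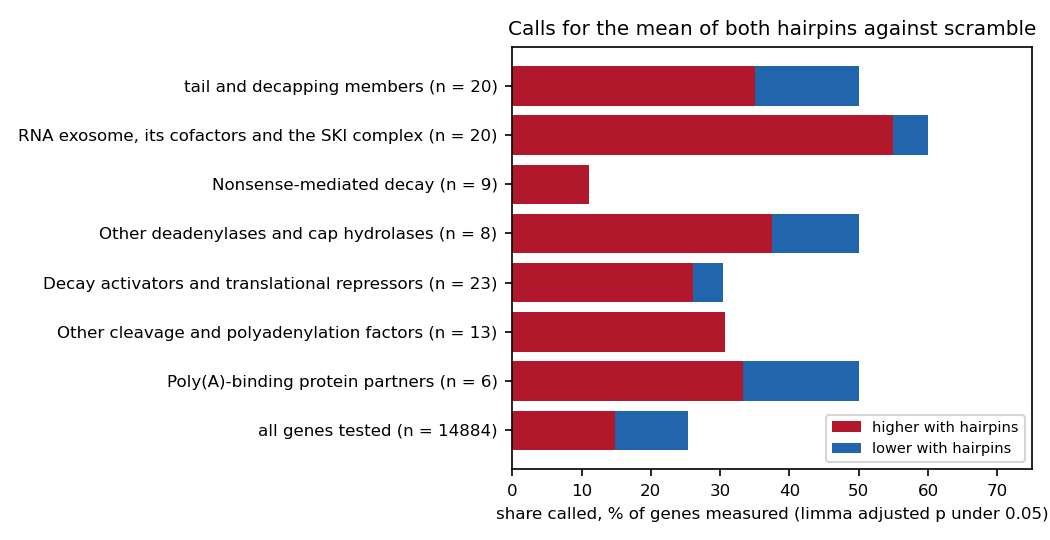
Share of measured genes called when both hairpins were averaged and set against scramble (horizontal axis, percent), split into higher (red) and lower (blue), for the 20 members, the 6 other lists and all 14884 genes. The members reach 50%, the exosome list 60% and the nonsense-mediated decay list 11.1%, beside 25.4% for all genes.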

How the data were processed

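Per the labels' protocols, biotin-labelled sense-strand DNA was made from 100 ng of total RNA with the WT PLUS reagent kit and hybridised to 1 array per sample. The deposited values, taken here as log2, had been set by the authors relative to each probe set's median. This was read from the values, since all 48144 medians lay within 1e-06 of 0. No source used here names the software, background correction, summarisation or normalization.

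Names came from the platform table's Entrez IDs, by which 16098 probe sets had 1 symbol. Those of the same gene were averaged. The 3 groups were fitted together in limma 3.58.1 under R 4.3.3 (eBayes, 3 residual and 3.09 prior degrees of freedom), with Benjamini-Hochberg adjustment over 14884 genes, and the fit was tested on simulated data. The labels call the arrays biological replicates and do not say what separates them, so a p-value covers the spread between these arrays alone, which may be technical. Replicate numbers are shared by the groups, and the labels do not say what a number shares. The differences between replicate 1 and replicate 2 correlated across genes at r = 0.20 (shRNA#2 and shRNA#4), 0.18 (shRNA#2 and scramble) and 0.12 (shRNA#4 and scramble). The fit with the replicate number as a block is therefore given where it changes the call of a member. Over the 6 lists that block raised the count for the mean of both hairpins from 31 to 34, or 43% beside 27.9% of all genes.

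The members, the 6 lists and the tests were chosen with earlier results of these data known. Values in every array are given for the 15 members called for the mean of both hairpins or between the hairpins, and of each list the 2 called genes with the largest change are named. Alternatives were the replicate block, quantile normalization, centring of each array, separate probe sets, all probe sets, a robust prior, a prior with a trend, array weights, only the arrays compared, and each array left out. A fit of protein-coding genes alone was chosen after seeing the data. Sequences and symbols are from RefSeq (GRCh38.p14). Python 3.11.15 with pandas 2.3.3 and matplotlib 3.10.9 drew the figures.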

Additional observations from a re-analysis of the deposited data

Results flagged for a closer look

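For 8 members the change against scramble differed between the hairpins by the direct test of shRNA#2 minus shRNA#4 (limma, adjusted p under 0.05). The differences on the log2 scale were 0.77 for TENT2, 0.62 for PAPOLA, 0.22 for LSM12, -0.25 for CNOT11, -0.38 for EDC4, -0.39 for DCP2, -0.47 for EDC3 and -0.52 for DCP1A. In TENT2 and PAPOLA the shRNA#2 arrays were above both scramble arrays and the shRNA#4 arrays below them, and in DCP1A it was the reverse. In LSM12 and DCP2 both hairpins lay on the same side of scramble and differed in size. Both hairpins carry the same target name in the labels, and what sets the hairpins apart in these genes was not tested. Over all genes 15.3% were called in this comparison, and 28% had changes of opposite sign with the 2 hairpins, beside 8 of the 20 members.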

How the results depend on the processing

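The 20 members gave 41 calls in the 4 comparisons, and 13 were kept in all 16 alternative settings; no called value changed its sign in any of them. The count of called members was 10 for the mean of both hairpins, and 5 with the 4 hairpin arrays as a single group, where 11.8% of all genes were called. For shRNA#4 against scramble it was 13, against 8 with quantile normalization (22.8% of all genes called) and 7 with all probe sets in the fit (13.1% of them called), where adjustment covers more features. Without each array in turn the counts ran from 6 to 9 for the mean of both hairpins, from 5 to 8 for shRNA#2 against scramble, from 6 to 10 for shRNA#4 against scramble and from 2 to 8 for shRNA#2 against shRNA#4, in fits where a lone array is assumed to vary like the other groups. With the replicate block the counts were 10, 11, 13 and 9 in that order of comparisons, and beside DCP1A, PAN3 and TENT4A the block changed the call of PAN2 with shRNA#2 (adjusted p 0.0386, limma) and of no other member. Quantile normalization and centring of each array moved the median change of all genes by at most 0.0024. A filter on dim probe sets was not run, because centred values hold no signal over background, so probe sets of any brightness entered the fits.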
